A study of Mus musculus with 4 samples.

Results

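The antigen receptor signalosome is the set of proteins that stand next to the B cell receptor and turn antigen binding into a signal. It was followed here through 10 genes, which were chosen by name, as proximal B cell receptor signaling genes, with earlier results of these data known. The genes are Cd79a, Cd79b, Syk, Btk, Blnk, Plcg2, Dapp1, Vav1, Vav2 and Vav3, and all 10 were found among 20599 gene symbols. They were compared by RNA-Seq between B1a cells of the peritoneum and follicular B2 cells of the spleen, 2 libraries each, all of wild-type C57BL/6 mice, with no treatment named in the labels. The methods speak of these controls as littermates of Dnmt3a-deleted mice in 1 place and as C57BL/6J mice in another, so whether they carried a floxed allele or Cre is not settled. By the methods, B1a cells were sorted as CD23- IgM+ CD5+ B cells from peritoneal washes and B2 cells as IgD-high IgM-low CD21+ B cells from spleens, and each group came from 2 mice. The labels give an age of 4 weeks for both groups, while the methods give an older age for the B2 cells. The cell type goes along with the tissue and perhaps the age, and these cannot be told apart. Dnmt3a-deficient cells of the study were not used here.

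In a resting B cell, membrane immunoglobulin is held at the surface with the CD79A and CD79B chains, which carry the tyrosine motifs (ITAMs) that are phosphorylated when antigen is bound. The kinase SYK docks on these motifs and phosphorylates the adaptor BLNK. BLNK then gathers the kinase BTK, phospholipase C gamma 2 and VAV exchange factors at the membrane, where calcium, diacylglycerol and RAC signals start, and the adaptor DAPP1 is recruited by phosphoinositides. B1a cells are known for a receptor response to antigen that is blunted in comparison with follicular B2 cells, and the comparison here asks how the transcripts of the shared machinery differ between both cell types.

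The libraries held between 11032732 and 18588623 expected counts. Counts were scaled with TMM factors to a common library total (CPM), and CPM was used to compare libraries. TPM, which also divides by transcript length, was used to compare genes with each other. A total of 12078 genes had enough counts for the test, the quasi-likelihood test of edgeR, adjusted over these genes by the Benjamini-Hochberg method, and a gene was called at an adjusted p under 0.05. The log2 fold change (log2FC) is B1a over B2. With 2 mice a group, p-values rest on the spread between these samples and on a variance estimate that edgeR shares among genes. Across the tested genes, both B1a libraries had a Pearson correlation of log2 CPM of 0.836 and both B2 libraries one of 0.966, and a B1a with a B2 library gave 0.788 to 0.858, so the range across cell types included the value within B1a cells. Of the B cell markers, Ms4a1 was found at 1159 and 1079 CPM in B1a and 615 and 733 CPM in B2 cells, and Pax5 at 268 and 265 CPM in B1a and 501 and 492 CPM in B2 cells. Of the genes for sorting antigens, Fcer2a (CD23) was found at 63.7 and 61.0 CPM in B1a and 934 and 896 CPM in B2 cells, and Cd5 at 15.9 and 22.4 CPM in B1a and 5.46 and 2.25 CPM in B2 cells. CD23 and CD5 were used to sort the B1a cells, and the difference of Cd5 was not called (edgeR adjusted p = 0.146).

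Of the 10 signalosome genes, Syk and Cd79a were called, both higher in B1a cells, and none was called higher in B2 cells (Vav3 and Cd79b also had an unadjusted p under 0.05, and DESeq2 and limma-voom called 3, with Cd79b in addition). This is 2 of 10, against 5.74% of all tested genes called in either direction, 4.24% called higher in B1a cells and 1.5% called higher in B2 cells. The 10 genes had a median log2FC of -0.05, and all tested genes one of -0.03. The B1a and B2 libraries did not overlap for 8 of the 10 genes, 3 with B1a above and 5 with B2 above, but they also did not overlap for 54.3% of all tested genes, 25.3% with B1a above and 29.0% with B2 above. In bulk samples, a difference in the number of cells that express a gene and a difference in RNA per cell cannot be told apart. All differences between the cell types for these genes were small, under 2-fold apart from Vav3.

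**Figure D1:**
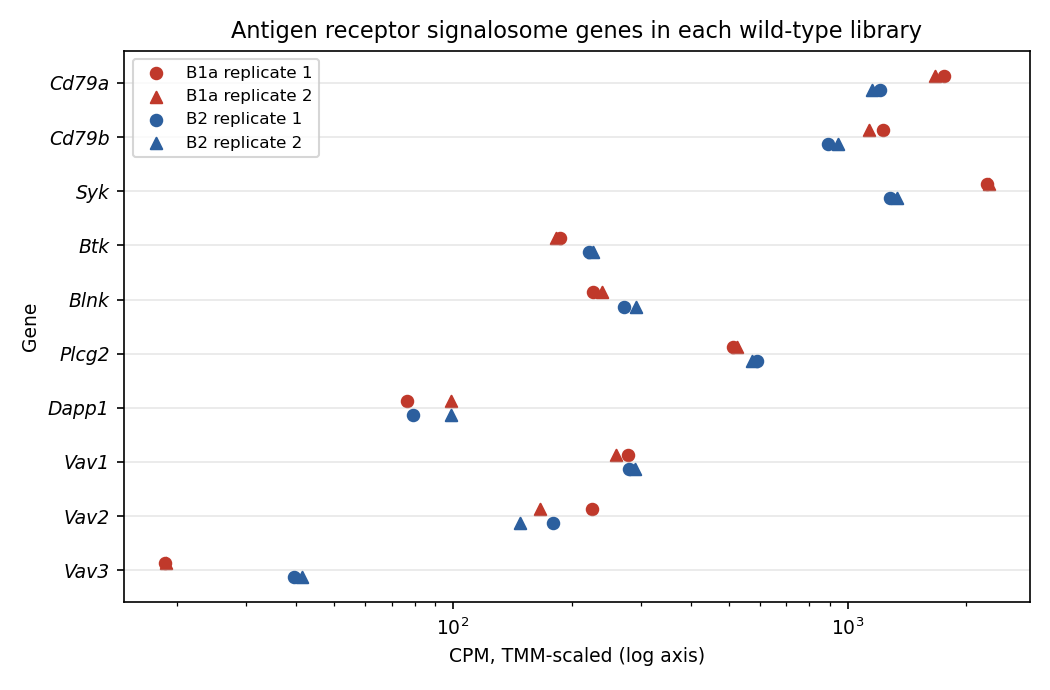
CPM of the 10 signalosome genes (log axis, TMM-scaled) in each of the 4 libraries, B1a in red and B2 in blue, with circles for replicate 1 and triangles for replicate 2. Syk sits at 2248 and 2275 CPM in B1a and at 1279.6 and 1337 CPM in B2 libraries, and the points of Dapp1 and Vav2 overlap between the cell types.

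Syk encodes the tyrosine kinase that binds the phosphorylated ITAMs, and lies on chromosome 13 of GRCm38 from 52582610 to 52648792. Its level was 2248 and 2275 CPM in B1a cells and 1279.6 and 1337 CPM in B2 cells. The replicates of each cell type lay close together and the cell types were far apart. The mean was 2261 ± 19.1 CPM (SD, n = 2) in B1a cells against 1308 ± 40.6 CPM (SD, n = 2), a log2FC of 0.79, or 1.73-fold (SE 0.09, edgeR adjusted p = 0.0087). The call held when each library was left out in turn, with log2FC values between 0.76 and 0.82. On the log2(TPM + 1) scale, where the median gene moved by -0.25 (log2), Syk had a log2FC of 0.55, which did not pass (adjusted p = 0.0522 from limma). Its change relative to that median shift was 0.80.

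Cd79a encodes the Ig-alpha chain of the receptor and lies on chromosome 7 from 24897497 to 24901858. It was found at 1756 and 1661 CPM in B1a cells and at 1207 and 1151 CPM in B2 cells, so both B1a libraries lay above both B2 libraries. The log2FC was 0.53, or 1.45-fold (SE 0.10, edgeR adjusted p = 0.0349). This call was less firm than that of Syk. It was lost without B2 replicate 1 (adjusted p = 0.101) and without B2 replicate 2 (adjusted p = 0.194), with upper quartile factors (adjusted p = 0.053) and on the log2(TPM + 1) scale (log2FC 0.29, adjusted p = 0.183 from limma).

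Cd79b encodes the partner chain, Ig-beta, and lies on chromosome 11 from 106311341 to 106314562. Cd79b had 1232 and 1131 CPM in B1a and 890.4 and 944 CPM in B2 cells. The groups did not overlap here either, but the log2FC of 0.37 did not pass (SE 0.11, edgeR adjusted p = 0.125). It passed with DESeq2 (adjusted p = 0.0052) and limma-voom (adjusted p = 0.0469), and also without B1a replicate 1 (adjusted p = 0.0136) or B1a replicate 2 (adjusted p = 0.000102), where the spread is taken from the B2 libraries alone. As CD79A and CD79B pair with each other in the receptor, their ratio was taken within each library, which does not depend on the scaling. The ratio of Cd79a to Cd79b TPM was 1.28 and 1.32 in B1a and 1.22 and 1.09 in B2 libraries. The B1a ratios were above the B2 ratios, with a difference of means of 0.143, and the exact two-sided permutation test gave p = 0.333, the smallest value that 2 libraries against 2 allow.

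The sequences before annotated starts of both called genes are shown, and which start the reads came from was not measured. Both Syk starts lie inside the span given above, which begins at 52582610, so these runs are within the gene. First and second give their order among the starts shown. That of Blnk, the adaptor that SYK phosphorylates, is shown beside them for contrast. Each run is the 250 bases before an annotated RefSeq start (GRCm38.p6), written in the direction of transcription, 5′ to 3′. Capitals mark 3 sets of letters, searched on both strands: AGGAAGT, a core bound by ETS family factors, CAGGTG, an E-box bound by E proteins, which reads CACCTG where it lies on the other strand, and ATTTGCAT, the octamer bound by OCT factors. These motifs were chosen after the sequences had been seen.
Cd79a, forward strand, chr7:24897247-24897496: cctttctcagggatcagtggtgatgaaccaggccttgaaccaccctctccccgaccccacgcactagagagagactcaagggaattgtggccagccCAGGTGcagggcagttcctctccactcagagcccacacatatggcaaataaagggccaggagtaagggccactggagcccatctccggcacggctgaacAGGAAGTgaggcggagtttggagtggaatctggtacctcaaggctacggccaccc
Syk, first start, forward strand, chr13:52583187-52583436: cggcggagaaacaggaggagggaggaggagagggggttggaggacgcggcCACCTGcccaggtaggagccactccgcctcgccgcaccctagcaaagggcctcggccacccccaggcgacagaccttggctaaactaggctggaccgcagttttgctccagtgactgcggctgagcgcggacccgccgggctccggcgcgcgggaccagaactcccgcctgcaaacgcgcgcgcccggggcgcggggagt
Syk, second start, forward strand, chr13:52596632-52596881: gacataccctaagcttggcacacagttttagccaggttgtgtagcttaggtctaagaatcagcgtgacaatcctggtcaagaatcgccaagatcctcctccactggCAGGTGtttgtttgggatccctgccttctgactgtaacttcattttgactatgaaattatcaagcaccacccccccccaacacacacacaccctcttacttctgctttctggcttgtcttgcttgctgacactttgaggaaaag
Blnk, reverse strand, chr19:40994222-40994471: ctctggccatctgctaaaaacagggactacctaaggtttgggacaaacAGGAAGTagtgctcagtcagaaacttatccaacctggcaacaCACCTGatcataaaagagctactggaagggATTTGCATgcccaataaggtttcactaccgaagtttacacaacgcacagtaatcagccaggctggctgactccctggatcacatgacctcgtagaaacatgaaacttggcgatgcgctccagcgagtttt

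The table of promoters held 9 of the 10 genes. The ETS core was found before a start of 6 of these 9 genes (Blnk, Cd79a, Dapp1, Vav1, Vav2 and Vav3). Of all 27025 genes in the table, expressed in B cells or not, 8.8% have it. In Vav1 it begins 10 bases before the start and in Cd79a 55 bases before it. The E-box was found in 5 of the 9 genes (Blnk, Cd79a, Plcg2, Syk and Vav1), against 19.4% of all genes, and no motif overlapped another in the runs shown. Blnk had the octamer, which 1.81% of all genes have. As the motifs were chosen after these sequences had been seen, the shares cannot show an enrichment and were not tested. A match in these windows describes the letters only, and the genes with the ETS core include Cd79a, which was called, and Vav1, Dapp1 and others that were not.

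Btk encodes the TEC family kinase that phosphorylates phospholipase C gamma 2, and lies on chromosome X from 134542334 to 134583628. Levels were 187 and 183 CPM in B1a and 221 and 227 CPM in B2 cells, and the replicates of each cell type differed by less than the gap between the cell types. Its log2FC of -0.28 did not pass (SE 0.13, edgeR adjusted p = 0.291). Blnk, on chromosome 19 from 40928927 to 40994221, encodes the adaptor on which BTK and phospholipase C gamma 2 meet. It was found at 226 and 239 CPM in B1a and at 272 and 291 CPM in B2 cells, with a log2FC of -0.27 that did not pass (SE 0.13, edgeR adjusted p = 0.294) except without B1a replicate 2 (edgeR adjusted p = 0.0453). Plcg2, on chromosome 8 from 117498275 to 117635142, encodes the phospholipase that cleaves PIP2 into the calcium-releasing messenger IP3 and diacylglycerol. Plcg2 had 513 and 525 CPM in B1a and 591 and 571 CPM in B2 cells, with a log2FC of -0.16 (SE 0.11, edgeR adjusted p = 0.463). For these 3 genes, which act together below SYK, both B2 libraries lay above both B1a libraries, as for 29.0% of all tested genes. Not one of the 3 differences was called in the main fit or with any of the 10 alternatives that used all libraries.

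Within each library, Syk was also set against Blnk and Btk, neither of which was called. The ratio of Syk to Blnk TPM was 4.0 and 3.82 in B1a and 1.9 and 1.85 in B2 libraries. The ratio of Syk to Btk TPM was 5.9 and 6.09 in B1a and 2.83 and 2.88 in B2 libraries. Both ratios were about 2 times as high in B1a cells, and they cannot move with the scaling between libraries. Their lack of overlap follows from Syk lying above in B1a and Blnk and Btk above in B2 libraries. These ratios were chosen after the values of the genes had been seen and were not tested. The ratio of Syk to Cd79a differed less, with 0.319 and 0.341 in B1a and 0.264 and 0.290 in B2 libraries.

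**Figure D2:**
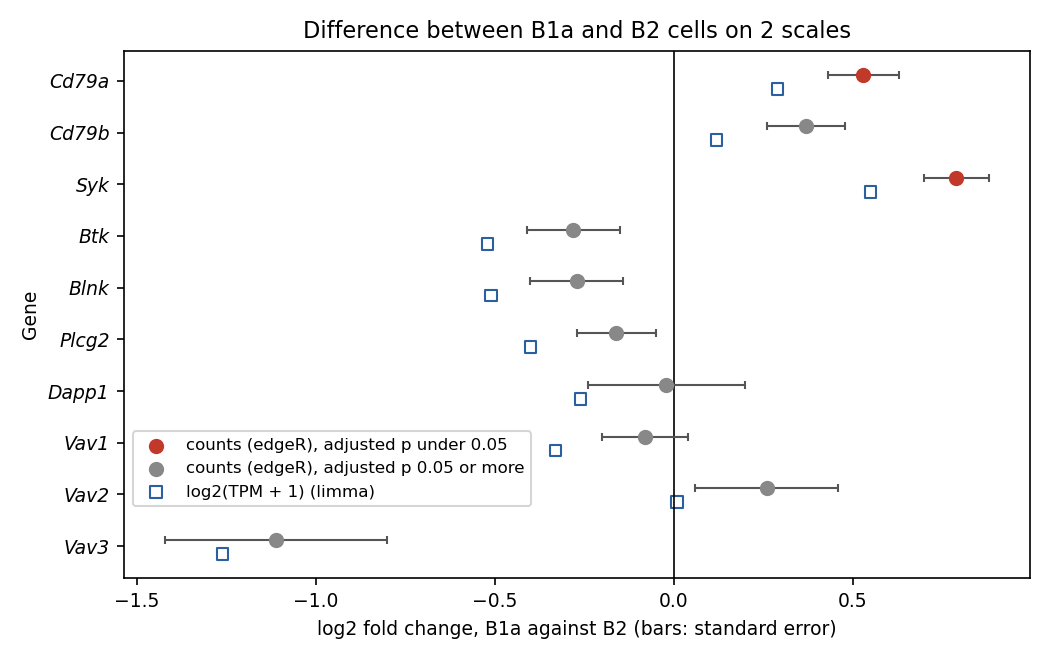
Log2 fold change of each signalosome gene, B1a against B2, from counts (filled circles with standard error, red where the adjusted p is under 0.05) and from log2(TPM + 1) (open squares). Syk and Cd79a are called from counts at 0.79 and 0.53, and each gene lies lower on the TPM scale, Syk at 0.55 and Cd79a at 0.29.

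Dapp1, on chromosome 3 from 137931007 to 137981549, encodes an adaptor with a PH and an SH2 domain that follows the PI3K products to the membrane. Dapp1 had 76.6 and 98.9 CPM in B1a and 79.4 and 98.8 CPM in B2 cells. The cell types overlapped and the replicates differed more than the means did (log2FC -0.02, SE 0.22, edgeR adjusted p = 0.972). Without B1a replicate 1 or B2 replicate 2 the value turned to 0.15, also not called.

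The VAV proteins are exchange factors that load RAC with GTP, and VAV1 is known as the hematopoietic form. Vav1, on chromosome 17 from 57279100 to 57329236, was found at 277 and 259 CPM in B1a and at 279.7 and 289 CPM in B2 cells (log2FC -0.08, SE 0.12, edgeR adjusted p = 0.779). Vav2, on chromosome 2 from 27262104 to 27427608, was found at 225 and 166 CPM in B1a and at 179 and 148 CPM in B2 cells (log2FC 0.26, SE 0.20, edgeR adjusted p = 0.558). Its B1a replicates differed most among the 10 genes, by 0.44 on the log2 scale, and the groups overlapped. Without B1a replicate 2 the Vav2 log2FC was 0.46 and called (edgeR adjusted p = 0.0046), and without B1a replicate 1 it was 0.02 (edgeR adjusted p = 0.934), so the value depends on which B1a library is used.

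Vav3 had the largest difference of the 10 genes and the lowest level. It lies on chromosome 3 from 109340465 to 109685694, and was found at 18.7 and 18.8 CPM in B1a and at 39.7 and 41.4 CPM in B2 cells, with replicates nearly equal in each cell type. The log2FC was -1.11, or 2.16-fold lower in B1a cells, which did not pass over all genes (SE 0.31, edgeR adjusted p = 0.112). With all libraries used, its adjusted p lay between 0.0566 and 0.145 in the alternatives. It passed without B1a replicate 1 (edgeR adjusted p = 0.000381) or B1a replicate 2 (edgeR adjusted p = 0.000175), and not without either B2 replicate (edgeR adjusted p = 0.779 and 0.964). Vav3 was deposited as 2 entries with the same transcripts, which share reads. The first held 207.67 and 205.51 counts in B1a and 412.63 and 792.0 in B2 libraries, and the second 1.33 and 3.49 counts in B1a and 45.29 and 0.0 in B2 libraries. The sum of both entries was used here, so the division of reads between them does not touch the values. Each of the other 9 genes had a single entry of at least 855 counts in a library, and the deposited posterior standard deviation was at most 0.171% of the count.

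Shares within the Vav family were taken from TPM in each library. Vav1 made up 49.2% and 54.8% of the summed Vav TPM in B1a and 53.0% and 57.8% in B2 libraries, and Vav2 48.0% and 41.9% in B1a and 40.7% and 35.4% in B2 libraries. The share of Vav3 was 2.77% and 3.30% in B1a and 6.29% and 6.87% in B2 libraries. Shares of Vav1 overlapped between the cell types (exact two-sided permutation p = 0.667), while those of Vav2 and Vav3 did not (p = 0.333 each, the smallest that this exact test allows). In both cell types, Vav1 and Vav2 thus gave nearly all of the family's transcripts per length.

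**Figure D3:**
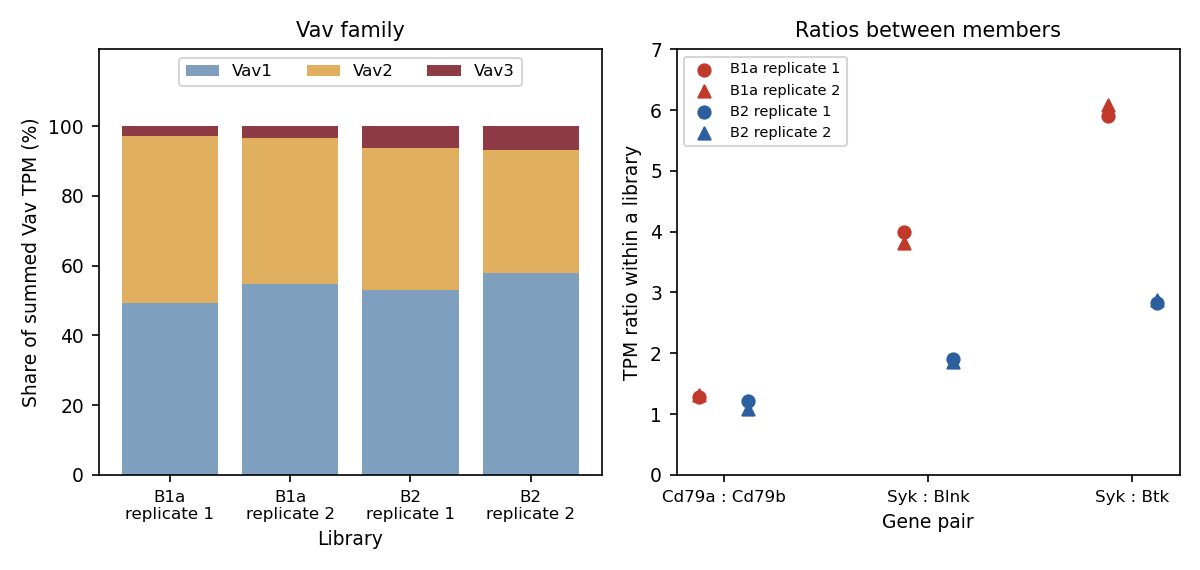
Left, share of Vav1, Vav2 and Vav3 in their summed TPM (%) in each library, with Vav3 at 2.77% and 3.30% in B1a and 6.29% and 6.87% in B2 libraries. Right, TPM ratios of Cd79a to Cd79b, Syk to Blnk and Syk to Btk within each library (B1a in red, B2 in blue, circles for replicate 1, triangles for replicate 2), where Syk to Blnk is 4.0 and 3.82 in B1a and 1.9 and 1.85 in B2.

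The order of the 10 genes by TPM was nearly the same in all 4 libraries. Cd79a came first (2983 to 3234 TPM in B1a and 2455 to 2615 in B2 libraries), followed by Cd79b (2265 to 2528 and 2149.8 to 2243 TPM) and Syk (1019 to 1032 and 691 to 711 TPM). The 2 receptor chains gave between 68.9% and 73.1% of the summed TPM of the 10 genes, and ranked between 26 and 70 from the highest among all gene symbols. Next stood Plcg2 (279.6 to 280.5 TPM in B1a and 361 to 379.9 in B2 libraries) and Blnk (258 to 266 and 364 to 384 TPM), whose order in B2 cells did not differ beyond the spread of the replicates. Btk (167 to 175 TPM in B1a and 244 to 247 in B2) followed, and then Vav1 (143 to 156 and 186 to 189 TPM) and Vav2 (109 to 153 and 116 to 143 TPM), which overlapped in B1a libraries. Dapp1 (58.7 to 73.9 and 71.5 to 87.6 TPM) and Vav3 (8.61 to 8.81 and 22.1 to 22.5 TPM) came last, apart from all other members. Every other pair of neighbors in this order was separate in both replicates of a cell type.

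The 10 genes varied little between replicates. The median absolute log2 ratio of the replicates was 0.08 in B1a and 0.07 in B2 cells. The 5975 tested genes with a mean CPM between those of Vav3 and Syk had medians of 0.32 and 0.14. Within this wide range the genes were not matched to the members by level, and the part of level in the gap was not tested. Only Dapp1 and Vav2 had a ratio above 0.12 in either cell type, with 0.37 and 0.44 in B1a and 0.31 and 0.28 in B2 cells. The standard errors above rest on a spread shared by all genes, and this smaller spread of the members is given as a description.

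Of the paralogs, which belong to the same families as the signalosome genes and of which several are known from T cells, none was called in 5 tested (0 at an unadjusted p under 0.05, and 0 called by DESeq2 or limma-voom). ZAP-70 is the SYK relative of T cells, and Zap70 was found at 16.4 and 4.05 CPM in B1a and at 2.0 and 2.3 CPM in B2 cells (log2FC 2.25, SE 1.07, edgeR adjusted p = 0.310). Syk made up between 98.3% and 99.6% of the summed TPM of both kinases. Among the TEC kinases, Tec was found at 151 and 128 CPM in B1a and at 177 and 174 CPM in B2 cells (log2FC -0.33, edgeR adjusted p = 0.300), and Btk made up between 55.7% and 59.1% of the family's TPM. Txk, another member, had 0.0 CPM in both B1a and 1.82 and 0.732 CPM in B2 libraries. Bmx was near or at 0 in each library. Lcp2, which encodes the T cell counterpart of BLNK, had 0.0 and 4.23 CPM in B1a and 3.90 and 3.50 CPM in B2 cells, while Clnk was at 0 in all libraries, and Blnk made up at least 98.9% of this family. Plcg1 was found at 34 and 38.9 CPM in B1a and at 52.0 and 42.9 CPM in B2 cells (log2FC -0.38, edgeR adjusted p = 0.508), and Plcg2 made up between 92.2% and 94.0% of both phospholipases. The exact permutation tests of these shares gave p between 0.333 and 1.0. Single libraries decide several of these calls. Zap70 (adjusted p = 2.35e-06) and Lcp2 (0.000281) passed in edgeR without B1a replicate 2, and Tec without B1a replicate 1 (0.0176).

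Other genes of the pathway were taken from fixed lists, and 10 of 75 tested were called (13.3%, against 5.74% of all tested genes), 4 higher in B1a and 6 higher in B2 cells. On the log2(TPM + 1) scale, 6 were called, all higher in B2 cells. CD21 and CD81 belong to the coreceptor, which lowers the threshold of the receptor. Cr2, which encodes CD21, was found at 98.4 and 92.0 CPM in B1a and at 968 and 1045 CPM in B2 cells, but CD21 was used to sort the B2 cells and its difference is set by the sort. Cd81 was found at 151 and 181 CPM in B1a and at 116 and 119 CPM in B2 cells, and its log2FC of 0.50 did not pass (edgeR adjusted p = 0.161) except without B1a replicate 1 (0.000729).

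In the PI3K arm, which makes the lipid that recruits BTK, PLCG2 and DAPP1 to the membrane, 5 of 16 tested genes were called, 1 higher in B1a and 4 higher in B2 cells. Pik3ap1 encodes BCAP, the adaptor that links the receptor to PI3K. It fell from 355 and 353 CPM in B2 to 162 and 108 CPM in B1a cells, a log2FC of -1.39 (SE 0.21, edgeR adjusted p = 0.0201). Pik3cg, the catalytic p110 gamma subunit, was found at 231 and 247 CPM in B2 and at 100.3 and 111 CPM in B1a cells (log2FC -1.18, edgeR adjusted p = 0.0101). Both genes were called in each of 10 alternatives with all libraries and without each library in turn, the TPM scales included.

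Pik3r1, which encodes the p85 alpha regulatory subunit, was called higher in B1a cells, with 311 and 372 CPM in B1a and 208 and 209 CPM in B2 cells (log2FC 0.71, SE 0.14, edgeR adjusted p = 0.0461). This call was lost without B2 replicate 1 (edgeR adjusted p = 0.191) or B2 replicate 2 (edgeR adjusted p = 0.192), with upper quartile factors (0.0643), with gene entries not summed (0.0506) and on the log2(TPM + 1) scale (adjusted p = 0.134 from limma). Pik3cd, the p110 delta subunit that is the main form in B cells, was found at 737 and 624 CPM in B1a and at 435 and 455 CPM in B2 cells, and its log2FC of 0.61 did not pass (SE 0.13, edgeR adjusted p = 0.0524). It passed with DESeq2 (adjusted p = 0.000164), limma-voom (0.0201, or 0.00165 with a weight for each cell type), a minimum of 10 counts in each library (0.0246) or of 1 count in any (0.0118), and without B1a replicate 1 (0.000255) or 2 (1.94e-09).

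Among 21 adaptors and ubiquitin ligases tested, Sos1 was called. It encodes a Ras exchange factor carried by GRB2, and rose from 96.0 and 104 CPM in B2 to 233 and 201 CPM in B1a cells (log2FC 1.11, SE 0.16, edgeR adjusted p = 0.0161). Bank1 and Dok3, the members of this list with the highest TPM, did not pass. Bank1 was found at 938 and 946 CPM in B1a and at 1049 and 1101 CPM in B2 cells, and Dok3 at 441 and 391 CPM in B1a and at 316 and 264 CPM in B2 cells (edgeR adjusted p = 0.348 and 0.115). Dok3 passed with DESeq2 (adjusted p = 0.015), with limma-voom and a weight for each cell type (0.023), and without B1a replicate 1 (0.00399) or 2 (8.68e-06).

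Of 11 small GTPases and effectors tested, which stand below the VAV proteins, Dock8 was called. This exchange factor for CDC42 was found at 1113 and 973 CPM in B1a and at 680.3 and 647 CPM in B2 cells (log2FC 0.65, SE 0.12, edgeR adjusted p = 0.0322), and the call was lost without B2 replicate 2 (edgeR adjusted p = 0.101). Dock2 (1739.6 and 1726 CPM in B1a, 1336 and 1365 CPM in B2) and Rac2 (636 and 737 CPM in B1a, 587 and 612 CPM in B2) did not pass (edgeR adjusted p = 0.0936 and 0.436). Dock2 passed with DESeq2 (adjusted p = 0.000184), with limma-voom (0.019, or 0.00899 with weights by cell type), and also without B1a replicate 1 (0.0012) or 2 (0.000328). Rac2 passed without B1a replicate 1 (0.0272).

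Of 15 genes of the calcium and diacylglycerol arm, which PLCG2 feeds, 2 were called in opposite directions. Prkca, a protein kinase C that is activated by diacylglycerol and calcium, was found at 185 and 141 CPM in B1a and at 56.6 and 49.5 CPM in B2 cells, a log2FC of 1.62 or 3.08-fold (SE 0.21, edgeR adjusted p = 0.0117). Dgka, whose kinase removes diacylglycerol, was found at 146 and 155 CPM in B1a and at 289 and 267 CPM in B2 cells (log2FC -0.89, SE 0.13, edgeR adjusted p = 0.0192). The Dgka call was lost without B2 replicate 1 (edgeR adjusted p = 0.121). Prkcb, the protein kinase C known for its role below the B cell receptor, was found at 1176 and 1153 CPM in B1a and at 1255 and 1336 CPM in B2 cells, and Prkcd at 201 and 248 CPM in B1a and at 264 and 255 CPM in B2 cells, and neither passed (edgeR adjusted p = 0.455 and 0.513), though Prkcd did without B1a replicate 2 (0.0208). The calls of Sos1, Dock8 and Prkca did not hold on the log2(TPM + 1) scale (adjusted p = 0.115, 0.153 and 0.0882 from limma).

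Malt1, which encodes a protease on the way to NF-kB, was found at 387 and 531 CPM in B1a and at 416 and 521 CPM in B2 cells, and its groups overlapped (edgeR adjusted p = 0.958). It passed without B1a replicate 2 (0.0488).

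Markers of other cell types were counted beside these genes, since macrophages and mast cells also use SYK, BTK, PLCG2 and VAV1. Of the macrophage genes, Lyz2 was found at 127 and 136 CPM in B1a and at 16.8 and 27.2 CPM in B2 libraries, and the 7 others summed to 61.3 and 85.8 CPM in B1a and to 41.5 and 32.5 CPM in B2 libraries. Csf1r was found at 16.9 and 21.9 CPM in B1a and at 21.2 and 18.3 CPM in B2 libraries. C1qa had 24.4 and 17.4 CPM in B1a and 4.6 and 6.06 CPM in B2 libraries. Cd68 had 16.3 and 22.1 CPM in B1a and 8.59 and 3.35 CPM in B2 libraries. Cd14 had 1.7 and 2.79 CPM in B1a and 0.434 and 0.0 CPM in B2 libraries. For C1qa, Cd68 and Cd14 the B1a libraries lay above the B2 libraries, though none of these genes was called, while Lyz2 was. The groups overlapped for Csf1r, Mrc1 and Timd4. The 8 listed macrophage genes together summed to 189 and 221 CPM in B1a and to 58.3 and 59.7 CPM in B2 libraries, with 6 of 8 above 3 counts in both B1a and 5 of 8 in both B2 libraries, and Fcgr1 at 0 in both B1a libraries. The 5 mast cell genes summed to 46.1 and 16.5 CPM in B1a and to 1.47 and 0.941 CPM in B2 libraries, with Cma1, Tpsb2 and Mcpt4 at 0 in both B2 libraries. Apart from Cd2, found at 559 and 492 CPM in B1a and at 138 and 184 CPM in B2 libraries, the 7 other T cell genes summed to 51.5 and 23.7 CPM in B1a and to 43.2 and 48.7 CPM in B2 libraries, with Cd4, Cd28 and Thy1 at 0 in both B1a libraries. Erythroid genes summed to 78.8 and 504 CPM in B1a and to 36.1 and 80.8 CPM in B2 libraries. Neutrophil, mesothelial, platelet and natural killer genes summed to between 0.0 and 6.64 CPM in a library, each list. Of the markers of other cell types, Lyz2, Cma1, Cd2 and Hba-a2 were called (edgeR adjusted p = 0.00764, 0.0499, 0.00592 and 0.0278). Each of these genes was higher in B1a libraries. The part of other cell types in the differences of the signalosome genes was not tested.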

How the data were processed

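RNA-Seq of sorted wild-type B1a and B2 cells (2 libraries each) was analyzed. For each library the authors mapped the reads (mm10, RefSeq genes) and estimated levels in RSEM (version 1.2.29 in the submitters' processing notes, another version in the methods). The library kit is named differently in the labels and in the methods. The authors deposited an expected count per gene entry, not normalized, with ambiguous reads divided among entries. TPM, scaled by RSEM to a common total, and a signal value, the posterior standard deviation of each count, were deposited too. FPKM and the effective length were deposited as well and were not used in any result.

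The 21970 entries were summed to 20599 symbols, rounded and filtered (filterByExpr). After TMM scaling they were tested with edgeR 4.0.16 (quasi-likelihood, R 4.3.3) over 12078 genes, without a replicate block. Calls were made at a Benjamini-Hochberg adjusted p under 0.05, whatever the fold. EBSeq, the test of the study, was not run. Standard errors were derived from the F statistic. Ratios were compared by exact permutation (scipy 1.17.1). Replicates are separate mice by the methods. At these depths 3 counts correspond to 0.161 to 0.272 CPM, which covers counting error only.

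Genes given by name are the 10 members, the called genes and the 2 genes with the highest mean TPM of each pathway list, the paralogs, and marker genes. Some of these are not reported here, and counts over lists include them. Members and lists were chosen with earlier results of these data known. The lists were the coreceptor, PI3K arm, adaptors and ubiquitin ligases, small GTPases and effectors, calcium and diacylglycerol arm, paralogs, and markers of B cells (given by Ms4a1 and Pax5), sorting antigens, T cells, macrophages, mast cells, neutrophils, erythroid, mesothelial, platelet and natural killer cells. Positions and the 250 bases before each start were read from RefSeq tables of GRCm38.p6, the build of mm10.

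Alternatives were DESeq2 1.42.0, upper quartile factors, limma-voom (limma 3.58.1) with and without a weight for each cell type, a minimum of 10 counts in each library, a minimum of 1 count in any, limma on log2(TPM + 1) and log2(TPM + 0.1) (mean TPM 1 or more), entries not summed, a replicate block, a fold limit of 1 on the log2 scale, and each library left out in turn over the same genes. The fits were tested on simulated data.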

Additional observations from a re-analysis of the deposited data

How the results depend on the processing

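The 2 called signalosome genes became 1 (Syk) with upper quartile factors, 0 with either TPM fit (pseudocount 1 or 0.1), where 6 and 7 of the 10 had an unadjusted p under 0.05, and 0 with a fold limit of 1 on the log2 scale. They numbered between 1 and 6 when each library was left out in turn. Syk was called in each of these 4 fits and in 8 of 10 alternatives, Cd79a in 7 of 10. The 693 called genes of the whole table became 1562 with DESeq2, 1415 with a weight for each cell type, 1141 with no filter beyond 1 count and 359 with limma on log2(TPM + 0.1), and between 547 and 6241 without a library. The high counts arise without a B1a library, where the B2 pair alone gives the spread and the lone B1a library is assumed to vary like it. Without a B2 library the B1a pair gives it. Of called genes, 73.9% were higher in B1a cells, against 53.3% with log2(TPM + 1), 54.6% with log2(TPM + 0.1), 49.9% without B1a replicate 1 and 43.8% without B1a replicate 2. The 10 called pathway genes (paralogs counted with them) became 20 with DESeq2, 16 with a weight for each cell type, 6 with each TPM fit, 6 with the fold limit, and between 8 and 42 without a library. Here the cause was not tested.

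With the replicate number as a block, 1481 genes, 3 signalosome genes (Cd79b in addition) and 18 pathway genes (Pik3cd, Dok3 and Dock2 among those added) were called. The numbers do not pair the samples by any label, and the deviations of same-numbered libraries correlated at -0.0347 across genes.

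Directions of uncalled genes turned for Dapp1 (0.15 without B1a replicate 1 and 0.15 without B2 replicate 2, with a range of -0.22 to 0.15 over libraries left out), Malt1 (0.18 and 0.14 without the same libraries, range -0.28 to 0.18), Lcp2 (0.19 without B1a replicate 1, range -8.69 to 0.19, whose lower end comes without B1a replicate 2, where the B1a library kept is at 0, and is no bound) and Rac2 (-0.05 with either TPM fit). The difference of the Vav3 share, B1a minus B2, was -3.55 percentage points from TPM and -4.39 from counts not divided by length. Without each library in turn it lay between -3.84 and -3.25. With 2 libraries a group, no exact permutation test can go below p = 0.333, and calls depend on the variance estimate that edgeR shares among genes.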
